A study of Mus musculus with 10 samples.

Results

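Osteocytes derived in vivo were set against osteocytes differentiated in culture, as a measure of how far the cultured population matched the one taken from the animal. Each population stood on 1 Illumina mouse bead array, so the comparison has no replicate on either side and carries no p-value. The 18351 of 45281 probes with a detection p-value under 0.01 on at least 1 of the 2 arrays were compared, each as its log2 intensity on the in vivo array minus that on the differentiated array. Of these, 13899 were detected on both arrays, 2530 on the in vivo array alone and 1922 on the differentiated array alone. The highest detection p-value inside this limit was 0.00962 (276 probes) and the lowest outside it 0.0107 (159 probes). Probes with 1 gene symbol numbered 15948 and covered 10355 genes, each read from its brighter probe over both arrays. The study compared mesenchymal stem cells (MSC, stromal cells that can give rise to bone, cartilage and fat), cells differentiated from them and cells reprogrammed from those, on 10 arrays in all. The in vivo array is labelled as in vivo derived osteocytes and the differentiated array as differentiated osteocytes. Both carry the strain C57BL/6J and the same source, adult bone marrow MSC. The labels give no age, sex, isolation step, culture medium or number of animals for either array, and they do not say whether material was pooled. The other 8 arrays, used here for context, held treated in vivo derived osteocytes (treatment not named), reprogrammed osteocytes, reprogrammed chondrocytes, reprogrammed adipocytes, differentiated chondrocytes, differentiated adipocytes and 2 samples of undifferentiated MSC.

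Osteoblasts lay down the collagen and mineral of bone, and those that become buried in it turn into osteocytes. Osteoblasts are known for alkaline phosphatase, bone sialoprotein and osteocalcin, and mature osteocytes for sclerostin, Dmp1, Phex and Fgf23, which control bone formation and phosphate. Bone and marrow also hold macrophages and osteoclasts, blood-lineage cells that engulf debris and resorb bone.

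Facts of the arrays bear on every value below. Detected probes numbered 16429 on the in vivo array and 15821 on the differentiated array. As deposited, 8 arrays including the in vivo array shared 1 intensity distribution with a mean near 538, whereas those of differentiated and of reprogrammed osteocytes each had their own, with means of 324 and 413. After quantile normalisation this scale and the group could not be told apart. Among genes lower in vivo, 143 of 1775 had the differentiated and reprogrammed osteocyte arrays both above all 8 others. Among genes higher in vivo, 142 of 1897 had both of them below all 8 others. Both sets were picked in part by the differentiated value, which by itself can raise these counts. The share over all genes was not computed, so the counts do not measure an effect of scale. The in vivo array held the X-inactivation transcript Xist at a log2 intensity of 9.51 together with the Y-linked Eif2s3y at 7.36 and Uty at 5.71, against 8.83 for Xist on the differentiated array, where neither Y-linked gene was detected. The treated in vivo array had Eif2s3y at 11.31 and did not detect Xist. Signals of both sex chromosomes were thus present on the in vivo array, and of Xist alone among them on the differentiated array. The part of sex in the differences was not tested.

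The label osteocyte was checked against 13 marker genes, of which 12 had a probe. Neither array detected Sost, Dmp1, Phex, Mepe, Fgf23, Dkk1 or Ackr3. Phex was detected on 6 arrays of the study, among them MSC 2 at 6.67. The probes of the others were detected on no array, so an absent transcript cannot be told from a probe without signal. Of the 5 markers detected, 2 were 2-fold higher in vivo and 3 differed by less, while 18.3% of all genes were higher. Fam20c, a kinase that phosphorylates secreted bone proteins, stood at 7.70 in vivo, against no detection on the differentiated array, at least 4.47-fold higher. Kcnk2, a stretch-gated potassium channel, stood at 7.81 in vivo against 6.24 in differentiated osteocytes, 2.98-fold higher. Reprogrammed chondrocytes had Kcnk2 at 8.25, and the MSC arrays at 5.33 and 7.44. Podoplanin (Pdpn), an early osteocyte membrane protein, stood at 13.99 in vivo and 13.52 in differentiated osteocytes. These 2 values lay above those of the other 8 arrays, which ran to 12.69.

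By fold, 3374 of the 18351 probes were at least 2-fold higher in vivo (18.4%) and 3403 were at least 2-fold lower (18.5%), with detection required on the higher side. By gene, 1897 were higher (18.3%) and 1775 lower (17.1%), about a median difference of -0.09 over all 10355 genes. The counts were alike in the 2 directions at 2-fold, but at larger folds more genes were higher. At 8-fold 398 genes were higher and 153 lower, and at 64-fold 64 were higher and 12 lower. Of the 1897 higher genes, 886 were detected on the in vivo array alone. For those, only a lower limit of the fold can be given, taken against the lowest level among detected probes of the other array, and that limit was under 2-fold for 331. Of the 1775 lower genes, 505 were detected on the differentiated array alone, and the limit was under 2-fold for 250. Among 1235 called genes with several detected probes, 192 had a probe that differed in the opposite direction. The sole replicate pair of the study gives a yardstick: between the 2 MSC arrays, 2888 of 17060 probes differed by 2-fold in either direction (16.9%), with a median absolute difference of 0.44, against 0.77 between in vivo and differentiated osteocytes.

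**Figure D1:**
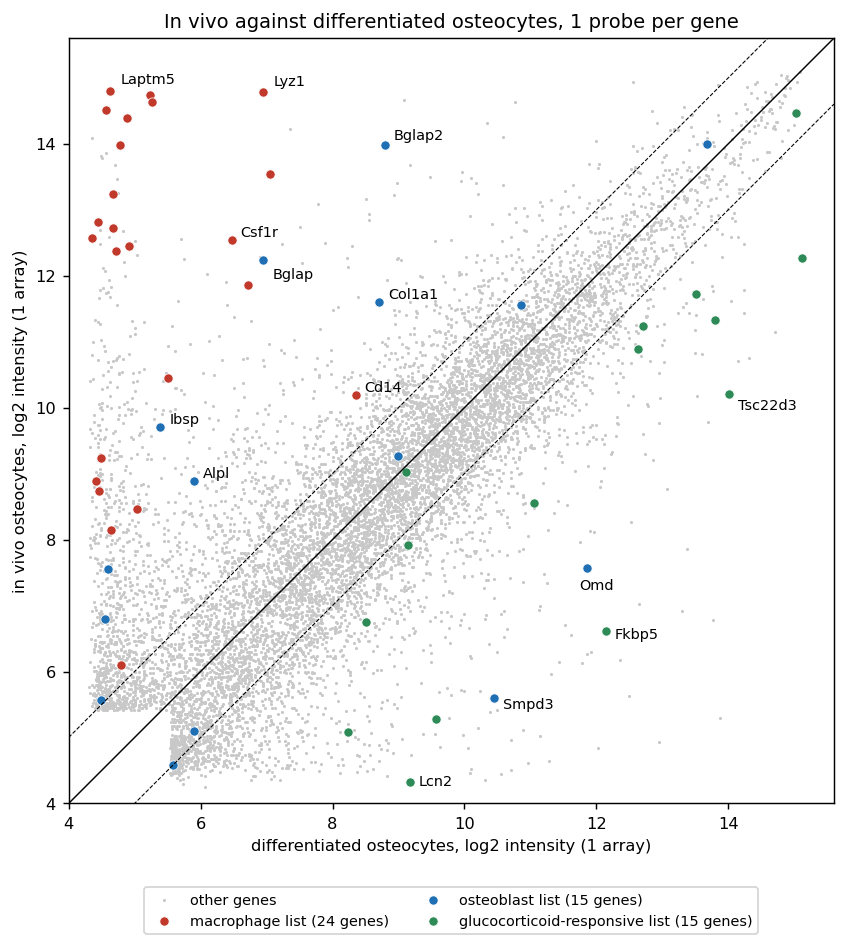
Log2 intensity of 10355 genes on the in vivo osteocyte array (vertical) against the differentiated osteocyte array (horizontal), 1 array each, with the solid line at equality and dashed lines at 2-fold. The macrophage list (red) lies far above the lines, the glucocorticoid-responsive list (green) mostly below them, and the osteoblast list (blue) on both sides.

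Genes of macrophages were the farthest apart. All 24 detected members of a 26-gene macrophage list were higher in vivo, against 18.3% of all genes. Their median difference was 7.59, or 6.87 with undetected levels set to their limit, where 23 stayed 2-fold higher. The list was chosen with earlier results of these data known. Cd163, a haemoglobin scavenger receptor of tissue macrophages, was not detected on either array. The median level of the list was 12.56 in vivo and 4.78 in differentiated osteocytes, and 24 members were detected in vivo against 5 in differentiated osteocytes. Members detected in vivo alone could only be called higher, so the count by itself says little. Of the 14 named genes that lay highest by the limit of their fold, 7 were on this list. In bulk RNA, a larger share of cells of a type and more RNA per such cell cannot be told apart. The part of this cell type in the other differences was not tested.

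Complement C1q, made chiefly by macrophages, has 3 chains. C1qb stood at 14.51 in vivo and C1qc at 14.39, while neither was detected in differentiated osteocytes, so they were at least 502-fold and at least 460.0-fold higher. C1qa stood at 12.57 in vivo and was also undetected in differentiated osteocytes, at least 130.3-fold higher. The chains were thus present together in one population and absent together from the other. Laptm5, a lysosomal membrane protein of blood cells, stood at 14.80 in vivo against no detection in differentiated osteocytes, at least 612-fold higher. Fcer1g, the signalling chain of Fc receptors, stood at 14.63 in vivo, undetected in differentiated osteocytes, at least 543-fold higher. Its partner in myeloid signalling, Tyrobp, stood at 12.82 in vivo and was undetected in differentiated osteocytes, at least 156-fold higher. Lyz2, the lysozyme of macrophages, stood at 14.74 in vivo and was undetected in differentiated osteocytes, at least 587-fold higher. Its near-identical neighbour Lyz1 stood at 14.78 in vivo and 6.95 in differentiated osteocytes. Probes of this pair may share target, so their levels are not independent. Other genes of the highest 14 were Mpeg1, a pore-forming protein of macrophages, at 13.98 in vivo, Ms4a6d at 13.86, Ms4a7 at 13.81, Wfdc17 at 13.78 and the lectin receptor Clec4d at 13.47, none detected in differentiated osteocytes. The survival genes Bcl2a1d and Bcl2a1b, near-identical copies whose probes may share target, stood at 14.09 and 13.68 in vivo and were likewise undetected in differentiated osteocytes.

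Regulators and receptors of the lineage followed. Csf1r, the receptor for the macrophage growth factor, stood at 12.54 in vivo and 6.47 in differentiated osteocytes, 67.1-fold higher. A second Csf1r probe was higher by 3.81 on the log2 scale. The ligand Csf1 differed less, at 11.44 in vivo and 9.97 in differentiated osteocytes, 2.77-fold higher. Spi1, which encodes the transcription factor PU.1 that directs myeloid development, stood at 8.89 in vivo and was undetected in differentiated osteocytes, at least 10.2-fold higher. The surface antigen F4/80, encoded by Adgre1, stood at 13.23 in vivo and was undetected in differentiated osteocytes, at least 207-fold higher. Trem2, a lipid receptor of macrophages and osteoclasts, stood at 13.54 in vivo and 7.05 in differentiated osteocytes. The smallest differences of the list were those of Cd14, at 10.19 in vivo and 8.35 in differentiated osteocytes, and of the integrin Itgam, at 6.10 in vivo and undetected in differentiated osteocytes, at least 1.47-fold higher.

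The same genes were as high on one other array. Differentiated chondrocytes had 23 of the 24 members detected at a median level of 12.94, and the in vivo minus chondrocyte difference had a median of 0.08, from -2.64 to 4.61 over the list. On the treated in vivo array 5 members were detected and the median level was 4.61. The remaining arrays detected 4 to 7 members. Marco, a scavenger receptor of resident macrophages, separated the in vivo array from the chondrocyte array as well, at 9.24 in vivo against no detection on any other array. Across all 22172 probes detected anywhere in the study, the in vivo array correlated with the differentiated chondrocyte array at r = 0.947. With differentiated osteocytes r was 0.851, and with the remaining arrays it ranged from 0.799 to 0.858. Differentiated osteocytes correlated most closely with MSC 1, at r = 0.959. Probes are not independent, and no test was made of these values.

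Of the 398 genes at least 8-fold higher in vivo, 368 were also at least 2-fold higher on the chondrocyte array than in differentiated osteocytes (92.46%), and 111 on the treated in vivo array (27.89%). For all 1897 higher genes the shares were 70.11% and 37.9%. The same differentiated array served to pick these genes and to count them, so a low value there raises both shares. The share over all genes measured was not computed, so these shares are no measure of likeness. The other 30 of the 398 are described below where they belong to bone, iron or protease genes.

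The promoter of C1qc is shown because it alone among the macrophage promoters searched held a match to the letters of PU.1, known to act on macrophage genes. The promoter of C1qb, which differed alike, held no match. The 250 bases before the start, from the RefSeq table of build GRCm38.p6, lie at chr4:136892915-136893164 on the minus strand. Capitals mark a match to the PU.1 letters GAGGAAGT, here on the opposite strand, which begins 195 bases before the start.

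C1qc: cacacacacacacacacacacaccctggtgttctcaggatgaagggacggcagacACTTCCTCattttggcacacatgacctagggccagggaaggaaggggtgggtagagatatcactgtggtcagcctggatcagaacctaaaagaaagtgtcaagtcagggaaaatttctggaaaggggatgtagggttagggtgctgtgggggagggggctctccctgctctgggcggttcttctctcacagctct

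Searched on both strands, these letters were present in 1 of 21 promoters in the table for the macrophage genes (17 of the 24 genes had one) and in 2.44% of all 32851 promoters. The match is a description of the letters and says nothing of binding.

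**Figure D2:**
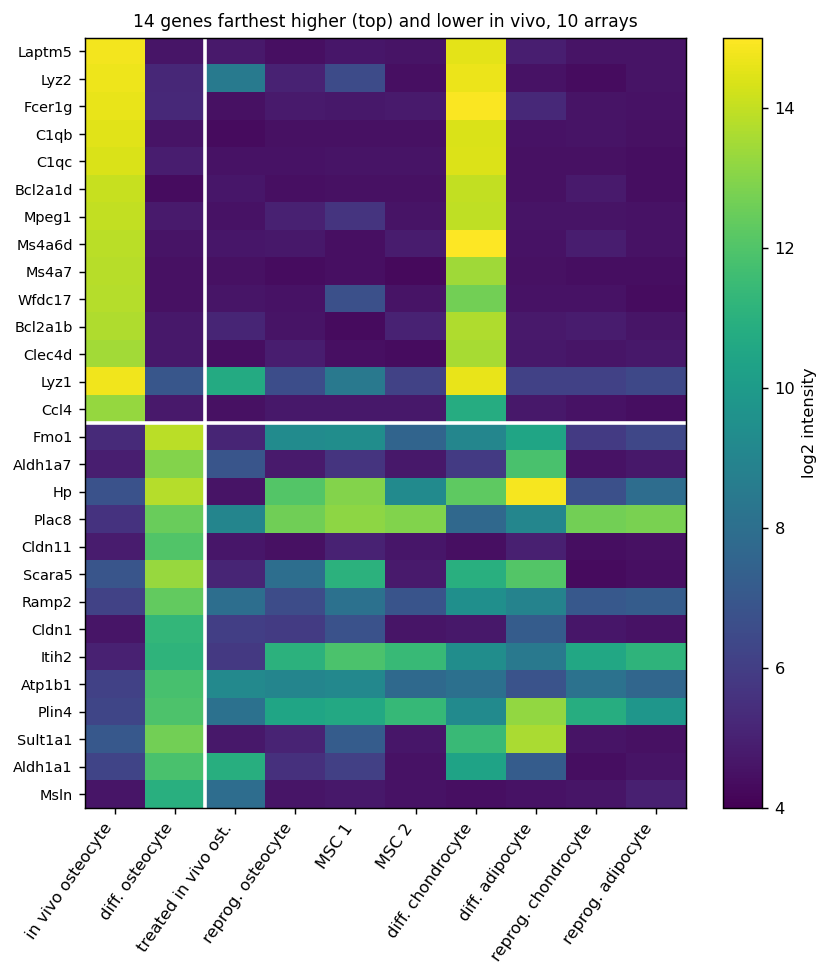
Log2 intensity (colour) of the 14 genes farthest higher in vivo, above the white line, and the 14 farthest lower, below it, on the 10 arrays, with in vivo and differentiated osteocytes at the left. The upper genes are bright on the in vivo and differentiated chondrocyte arrays.

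For every list below, counts stand against 18.3% of all genes higher and 17.1% lower, and a share near these is no result about the list. Of the neutrophil list 4 of 11 genes with a probe were detected, with S100a8 and Csf3r higher in vivo and Lcn2, undetected in vivo and at 9.17 in differentiated osteocytes, lower. The haemoglobin and other red-cell genes were undetected on both arrays apart from Tfrc, and of the T and NK cell list only Thy1 was detected, which stromal cells also carry. Of 13 endothelial genes 6 were detected, with 2 higher and 0 lower. Flt1, a receptor of vascular growth factor, stood at 10.02 in vivo and 6.19 in differentiated osteocytes, 14.2-fold higher, and Eng was at least 5.14-fold higher, while Pecam1, Cdh5 and Tie1 were detected on neither array. Pf4, a platelet chemokine also found in macrophages, was detected in vivo and not in differentiated osteocytes, at least 43.9-fold higher, while the integrin Itga2b of the same lineage was undetected in vivo and stood at 6.05 in differentiated osteocytes, and Ppbp, Gp1bb and Gp9 were detected on neither array. Of 13 osteoclast genes with a probe, 6 were detected, 3 of them higher in vivo and 0 lower. Ctsk, the collagen-cleaving protease of osteoclasts, stood at 11.85 in vivo and 10.21 in differentiated osteocytes. Tnfrsf11a, the receptor RANK, stood at 8.12 in vivo and was undetected in differentiated osteocytes. Tcirg1, a subunit of the osteoclast proton pump, was 3.90-fold higher in vivo on its brightest probe. Its other probes differed by -0.64, 0.26 and 2.23 on the log2 scale, so its direction depends on the probe. Nfatc1, Oscar and Mmp9 differed by less than 2-fold. The other 7, among them Acp5, Calcr, Dcstamp and Atp6v0d2, were detected on neither array.

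Genes of bone formation were mixed. Of 15 detected osteoblast genes 8 were higher, 3 lower and 4 within 2-fold. The median difference was 1.08, or 0.70 with undetected levels at their limit, where 7 genes stayed 2-fold higher and 2 lower. Without background correction the median was 0.67. Osteocalcin, the hormone-like protein of mineralising osteoblasts, stood out. Bglap stood at 12.24 in vivo and 6.95 in differentiated osteocytes, 39.2-fold higher, and a second probe was higher by 3.05 on the log2 scale. The near-identical copy Bglap2 stood at 13.98 in vivo and 8.79 in differentiated osteocytes, 36.5-fold higher. Probes of these copies may share target. The in vivo values were the highest of the 10 arrays for both genes by at least 5.19, and the differentiated and treated in vivo arrays came next, with the treated array at 6.87 for Bglap and 8.63 for Bglap2. On the other 7 arrays Bglap lay at 4.89 or below, and Bglap was detected on none of them.

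The matrix protein bone sialoprotein (Ibsp) stood at 9.71 in vivo and was undetected in differentiated osteocytes, at least 18.0-fold higher, while the chondrocyte array had it at 9.72. Alpl, the phosphatase that frees phosphate for mineral, stood at 8.89 in vivo and 5.90 in differentiated osteocytes, 7.96-fold higher, and no other array exceeded 6.86. Collagen I is the main protein of bone matrix. Its chain Col1a1 stood at 11.60 in vivo and 8.71 in differentiated osteocytes, 7.41-fold higher. Its other chain did not follow: Col1a2 stood at 11.55 in vivo and 10.85 in differentiated osteocytes, and Sparc, a collagen-binding glycoprotein, differed by less than 2-fold. The differentiated array had less Col1a1 than any array but that of differentiated adipocytes, at 4.72.

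Among the regulators, Dlx3, a homeobox factor of late osteoblasts, stood at 7.56 in vivo and was undetected in differentiated osteocytes, at least 4.04-fold higher. Pth1r, the parathyroid hormone receptor, stood at 6.79 in vivo and was undetected in differentiated osteocytes, at least 2.38-fold higher. The osteoblast factor Sp7 was near equal, at 9.27 in vivo and 8.99 in differentiated osteocytes. The 3 members lower in vivo were Smpd3, Omd and Dlx5. Smpd3, a sphingomyelinase needed for mineralisation, stood at 5.60 in vivo and 10.44 in differentiated osteocytes, 28.7-fold lower in vivo. Omd, osteomodulin, a small leucine-rich matrix protein, stood at 7.57 in vivo and 11.85 in differentiated osteocytes, 19.4-fold lower in vivo. Dlx5, a homeobox factor of osteoblasts, was undetected in vivo and near the detection limit, at 5.58, in differentiated osteocytes. On the MSC arrays Smpd3 stood at 9.88 and 9.53, both nearer to differentiated osteocytes, and Omd at 10.96 and 8.17, of which the second was nearer to the in vivo array. Ptprv, osteotesticular phosphatase, outside the lists and chosen after its values were seen, stood at 10.09 in vivo and 6.07 in differentiated osteocytes, 16.2-fold higher.

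The promoter of Bglap is shown because osteocalcin set the in vivo array apart and Runx2 is known to act on osteocalcin promoters. The 250 bases before its start lie at chr3:88384467-88384716 of GRCm38.p6 on the minus strand. Capitals mark the match to the Runx letters TGTGGT, here on the opposite strand, which begins 132 bases before the start.

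Bglap: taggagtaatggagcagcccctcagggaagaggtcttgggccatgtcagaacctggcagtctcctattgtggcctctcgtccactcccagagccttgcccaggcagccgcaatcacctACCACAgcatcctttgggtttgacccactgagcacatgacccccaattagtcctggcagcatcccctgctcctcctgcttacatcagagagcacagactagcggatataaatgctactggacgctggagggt

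The Runx letters were present on either strand in 1 of 11 promoters of the osteoblast genes in the table (8 of the 15 genes had one) and in 14.05% of all promoters, so the match is a common one.

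**Figure D3:**
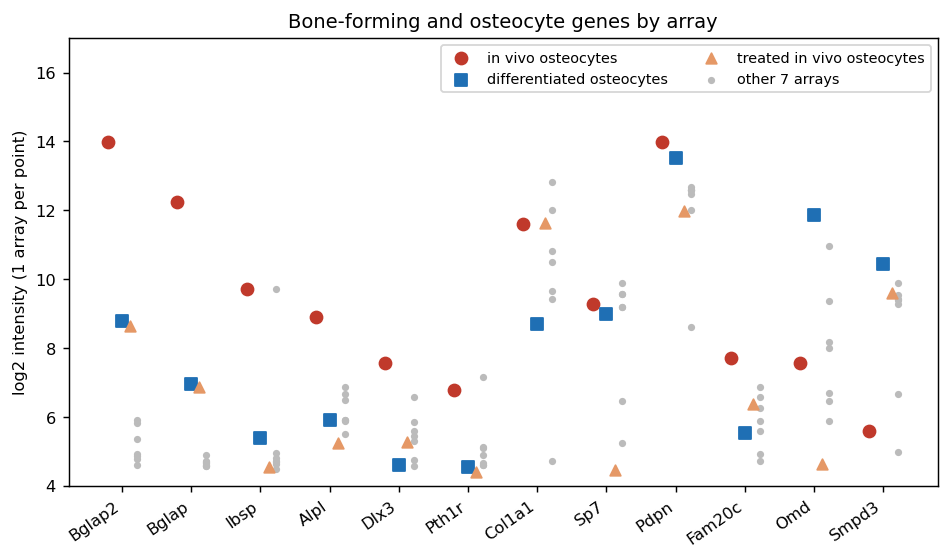
Log2 intensity of 12 osteoblast and osteocyte genes on each array (in vivo in red, differentiated in blue, treated in vivo in orange, the other 7 arrays in grey), 1 array per point. In vivo osteocytes exceed the other arrays for Bglap2, Bglap, Alpl, Dlx3 and Fam20c, and lie below differentiated osteocytes for Omd and Smpd3.

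Genes known to respond to glucocorticoids, steroid hormones that act through the receptor Nr3c1, were lower in vivo as a group. Of 15 detected members 13 were lower, 0 higher and 2 within 2-fold, with a median difference of -2.47, against 17.1% lower and a median of -0.09 over all genes. Fkbp5, a chaperone partner of steroid receptors, stood at 6.62 in vivo and 12.14 in differentiated osteocytes, 46.1-fold lower in vivo. Tsc22d3, the glucocorticoid-induced leucine zipper, stood at 10.20 in vivo and 14.01 in differentiated osteocytes, 14.1-fold lower in vivo. Zbtb16, a transcriptional repressor, was undetected in vivo and stood at 8.23 in differentiated osteocytes. Sgk1, a kinase of ion transport, stood at 12.26 in vivo and 15.12 in differentiated osteocytes, 7.31-fold lower in vivo. The cell cycle inhibitor Cdkn1c was undetected in vivo and stood at 9.57 in differentiated osteocytes, at least 17.9-fold lower in vivo. The 2 members within 2-fold were Mt1, a metal-binding protein, and Angptl4, an inhibitor of lipoprotein lipase.

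The level of most of these genes followed the differentiated label over the 10 arrays. For 10 of the 15, all 3 differentiated arrays lay above all 7 others. So did 203 of all 10355 genes (1.96%) and 76 of the 1775 genes lower in vivo. Some gaps were small: Per1 stood at 8.68 or above against at most 8.63, and Sgk1 at 13.92 or above against at most 13.81. The rest of the list did not follow, and Cdkn1c was lowest of the 10 arrays in differentiated adipocytes, at 5.18. The list was chosen with earlier results of these data known. Fkbp5 stood at 12.14, 12.02 and 11.80 on the differentiated osteocyte, chondrocyte and adipocyte arrays and at most at 8.38 on any other. Tsc22d3 was at least at 12.65 on those 3 and at most at 10.20 on the others. The hormone-activating enzyme Hsd11b1 had the same order, at 11.05 in differentiated osteocytes and at most 8.55 on the 7 others, of which the in vivo array was the highest. The medium of each culture is not in the labels, and its part in these levels was not tested.

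The promoters of Sgk1 and Serpina3n, an acute-phase protease inhibitor, are shown because both genes were lower in vivo and hold a match to the receptor's palindrome. Capitals mark the stretch that fits the glucocorticoid receptor's palindromic motif, searched on both strands. In Sgk1 the window precedes 1 of several annotated starts, at chr10:21993640-21993889 on the plus strand, and the match begins 188 bases before it. In Serpina3n it lies at chr12:104406458-104406707 on the plus strand, and the match begins 78 bases before the start.

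Sgk1: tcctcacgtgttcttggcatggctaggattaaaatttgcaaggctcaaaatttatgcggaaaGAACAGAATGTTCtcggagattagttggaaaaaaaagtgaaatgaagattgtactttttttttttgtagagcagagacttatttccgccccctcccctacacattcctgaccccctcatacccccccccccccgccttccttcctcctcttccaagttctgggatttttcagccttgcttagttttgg

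Serpina3n: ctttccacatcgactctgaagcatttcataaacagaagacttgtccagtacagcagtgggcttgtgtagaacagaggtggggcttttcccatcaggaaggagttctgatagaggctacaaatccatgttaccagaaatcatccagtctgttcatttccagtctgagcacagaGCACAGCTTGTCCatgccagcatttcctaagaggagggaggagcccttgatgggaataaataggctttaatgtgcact

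These letters were present in 3 of 21 promoters of the list in the table (12 of the 15 genes had one) and in 0.39% of all promoters. The other match was that of Mt1, which differed by less than 2-fold. The promoters of Fkbp5, Tsc22d3, Lcn2 and Hsd11b1 held no match. The matches describe the letters and say nothing of binding. Serpina3n stood at 11.24 in vivo and 12.71 in differentiated osteocytes, 2.78-fold lower in vivo, and at most at 4.58 on the MSC and reprogrammed arrays.

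**Figure D4:**
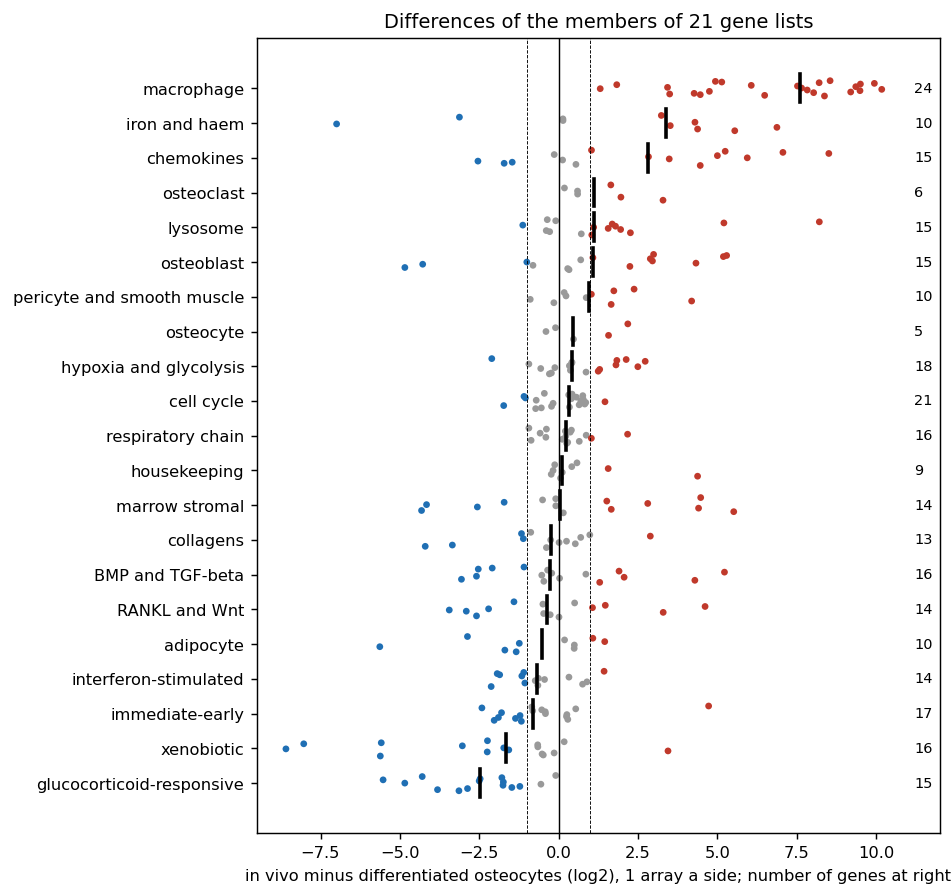
Difference in vivo minus differentiated (log2) for the detected members of 21 gene lists, 1 point per gene, with bars at the medians, dashed lines at 2-fold, red points higher and blue points lower in vivo. Lists run from the macrophage genes, at a median of 7.59, to the glucocorticoid-responsive genes, at -2.47.

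Among the 14 named genes farthest lower in vivo was Fmo1, a flavin mono-oxygenase of drug metabolism, which was undetected in vivo and stood at 13.88 in differentiated osteocytes, at least 354-fold lower in vivo. Aldh1a7, an aldehyde dehydrogenase, was likewise undetected in vivo and stood at 12.95 in differentiated osteocytes, at least 186-fold lower in vivo. Its relative Aldh1a1, which makes retinoic acid, stood at 6.27 in vivo and 11.86 in differentiated osteocytes. The sulphotransferase Sult1a1 stood at 7.02 in vivo and 12.64 in differentiated osteocytes, 49.0-fold lower in vivo. Of 16 detected genes of xenobiotic metabolism 9 were lower and 1 higher, the glutathione transferase Gsta3. Its level was 11.53 in vivo and 8.08 in differentiated osteocytes, and the chondrocyte and adipocyte arrays were higher still, at 12.83 and 13.40.

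The tight-junction protein Cldn11 was undetected in vivo and stood at 12.02 in differentiated osteocytes, at least 97.0-fold lower in vivo, and at most at 5.06 on any other array. Cldn1 of the same family was undetected in vivo and stood at 11.28 in differentiated osteocytes, at least 58.5-fold lower in vivo. Msln, a surface protein of mesothelium, was undetected in vivo and stood at 10.96 in differentiated osteocytes, at least 46.7-fold lower in vivo, and was at 7.95 on the treated in vivo array. The 5 detected epithelial and mesothelial genes were all detected on the differentiated array and 0 in vivo, so a call could only be lower. Of these 5, 4 were lower in vivo, and 3 stayed 2-fold lower with undetected levels at their limit. The keratins Krt8, Krt18 and Krt19 and the mesothelial Upk3b were detected on neither array. Other genes of the set were the haemoglobin-binding plasma protein Hp, at 6.78 in vivo and 13.77 in differentiated osteocytes, and the ferritin receptor Scara5, at 6.92 in vivo and 13.29 in differentiated osteocytes. Both were also high on the MSC 1, differentiated chondrocyte and differentiated adipocyte arrays. Ramp2, a partner of the adrenomedullin receptor, stood at 6.17 in vivo and 12.36 in differentiated osteocytes, and its ligand Adm at 8.02 in vivo and 10.12 in differentiated osteocytes. The set also held Plac8, Itih2, Atp1b1 and Plin4, which were 49.6-fold to 116-fold lower in vivo, Itih2 as a lower limit.

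Of 10 detected iron and haem genes 6 were higher and 2 lower, with a median difference of 3.38. The iron exporter ferroportin (Slc40a1) stood at 14.22 in vivo and 7.35 in differentiated osteocytes, 118-fold higher, and no other array exceeded 10.41. Hmox1, which breaks down haem, stood at 13.22 in vivo and 8.93 in differentiated osteocytes, 19.6-fold higher. Blvrb stood at 13.41 in vivo and 10.18 in differentiated osteocytes. The transferrin receptor Tfrc, which takes up iron, stood at 12.93 in vivo and 8.55 in differentiated osteocytes, 20.8-fold higher, and transferrin itself (Trf) at 10.53 in vivo and undetected in differentiated osteocytes, whereas the ferritin receptor Scara5 was 82.8-fold lower in vivo. The ferritin chains that store iron were near equal, with Fth1 at 15.02 in vivo and 14.89 in differentiated osteocytes. The lower members were the plasma proteins Hp and ceruloplasmin (Cp), with Cp at 8.14 in vivo and 11.26 in differentiated osteocytes. Macrophages also recycle iron, and the macrophage list stood beside these genes at medians of 12.56 in vivo and 4.78 in differentiated osteocytes. Its part in them was not tested.

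Chemokines, which attract white cells, were mostly higher in vivo: 9 of 15 detected were higher and 3 lower, with a median of 2.83. Ccl4 stood at 13.26 in vivo and Ccl3 at 11.68, both undetected in differentiated osteocytes, at least 211-fold and at least 70.7-fold higher. Ccl2, the main attractant of monocytes, stood at 10.86 in vivo and 5.61 in differentiated osteocytes, 38.0-fold higher. The differentiated value was the lowest of the 10 arrays for Ccl2, where MSC stood at 8.63 and 10.29. Cxcl12, the marrow factor that retains blood stem cells, went the other way, at 11.75 in vivo and 13.46 in differentiated osteocytes, and the in vivo value was the lowest of all arrays. Cxcl1, an attractant of neutrophils, was 5.82-fold lower in vivo. The cytokine Il6 stood at 8.65 in vivo and was undetected in differentiated osteocytes, while the treated in vivo array had 9.91.

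Markers of further cell types of bone and its surroundings were counted in the same way. Of 10 detected pericyte and smooth muscle genes 5 were higher and 0 lower. Acta2, smooth muscle actin, stood at 14.94 in vivo and 12.56 in differentiated osteocytes, 5.20-fold higher, and only the adipocyte array was lower than differentiated osteocytes, at 10.25. Of 5 skeletal muscle genes 2 were higher and 2 lower, of 4 B cell genes 2 and 1, of 3 Schwann cell and neural genes 2 and 0, and of 3 tendon genes 1 and 1. With undetected levels at their limit, 3 pericyte and smooth muscle genes stayed 2-fold higher. So did 1 skeletal muscle gene and 1 B cell gene, and no skeletal muscle gene stayed lower. Of 15 cartilage genes with a probe 13, among them the cartilage collagen Col2a1 and aggrecan (Acan), were detected on neither array. Sox9, the master factor of cartilage, stood at 9.54 in vivo and 10.59 in differentiated osteocytes, 2.07-fold lower in vivo. The other detected member, the cartilage matrix protein Comp, stood at 6.74 in vivo and was undetected in differentiated osteocytes, at least 2.30-fold higher, against 13.77 on the chondrocyte array.

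Genes of immunity and lipid handling were called in both directions. Of 11 complement genes 5 were higher, among them the 3 C1q chains, and 4 lower. Properdin (Cfp), which stabilises the alternative pathway, stood at 13.16 in vivo and 8.50 in differentiated osteocytes, 25.3-fold higher, whereas C2 stood at 8.11 in vivo and 11.97 in differentiated osteocytes, 14.5-fold lower in vivo. Of 13 antigen-presentation genes 5 were higher and 1 lower, and the class II chains H2-Aa, H2-Ab1 and H2-Eb1 were detected on neither array. Of 10 acute-phase genes 2 were higher and 5 lower, with a median difference of -0.85. Of 15 lipid efflux and scavenger genes 9 were higher and 3 lower. Gpnmb, a glycoprotein of macrophages and osteoblasts, stood at 14.63 in vivo and 10.76 in differentiated osteocytes, 14.7-fold higher. The scavenger receptor Stab1 was 6.54-fold lower in vivo on its brightest probe, but its other probes were higher in vivo by 5.24 and 6.28 on the log2 scale, so its direction depends on the probe. Of 13 circadian clock genes 2 were higher and 4 lower, with Per2 at 7.47 in vivo and 9.69 in differentiated osteocytes.

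Lysosomal genes were higher for 9 of 15 and lower for 1, with a median of 1.10. Cathepsin C (Ctsc) stood at 12.69 in vivo and was undetected in differentiated osteocytes, at least 142-fold higher, whereas cathepsin B (Ctsb) was level, at 14.41 in vivo and 14.50 in differentiated osteocytes. Among matrix proteases 6 of 17 were higher and 3 lower. Macrophage elastase, Mmp12, was detected in vivo and not in differentiated osteocytes, at least 88.3-fold higher, and no other array exceeded 5.34. Collagenase 3 (Mmp13), which osteoblasts make, stood at 13.67 in vivo and 9.17 in differentiated osteocytes, 22.6-fold higher. Mmp2 and Mmp14, proteases of stromal cells, differed by less than 2-fold.

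Collagens other than type I were level or lower in vivo. Of 13 detected collagen genes 1 was higher, Col1a1, and 4 lower. The collagen VI chains, which form fine filaments around cells, were the farthest: Col6a1 stood at 10.17 in vivo and 13.52 in differentiated osteocytes, and Col6a2 at 6.93 in vivo and 11.13 in differentiated osteocytes, 10.2-fold and 18.4-fold lower in vivo. In both the in vivo array was the lowest of the 10. Among matrix glycoproteins 3 of 15 were higher, near the 18.3% of all genes, and 5 lower. Tenascin C (Tnc) stood at 9.90 in vivo and was undetected in differentiated osteocytes, at least 20.5-fold higher, but lay from 8.19 to 10.68 on the MSC, chondrocyte and reprogrammed arrays. Osteoglycin (Ogn) stood at 11.15 in vivo and 14.71 in differentiated osteocytes, and decorin (Dcn) at 9.52 in vivo and 12.08 in differentiated osteocytes.

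Growth factor systems differed in both directions. Igf1, the growth factor bone cells and macrophages secrete, stood at 12.27 in vivo and 8.22 in differentiated osteocytes, 16.6-fold higher, whereas Igf2 stood at 7.34 in vivo and 11.25 in differentiated osteocytes, lower in vivo. Of 11 genes of this system 4 were higher and 4 lower. Among the 16 detected BMP and TGF-beta genes 5 were higher and 5 lower. Grem1, a secreted inhibitor of BMPs, stood at 12.74 in vivo and 7.51 in differentiated osteocytes, 37.4-fold higher, and at 11.69 on the treated in vivo array. Tgfb1, a ligand stored in bone matrix, stood at 10.50 in vivo and 6.21 in differentiated osteocytes, 19.6-fold higher. Bmp4 stood at 9.70 in vivo and 11.79 in differentiated osteocytes, and Smad6, an inhibitor inside the cell, was 8.34-fold lower in vivo. Of 14 detected RANKL and Wnt regulators 4 were higher and 5 lower. Dkk3 stood at 12.50 in vivo and 7.89 in differentiated osteocytes, 24.5-fold higher, whereas the Wnt-binding Sfrp1 stood at 9.29 in vivo and 12.74 in differentiated osteocytes, 10.9-fold lower in vivo. The Wnt target Axin2 was 2.65-fold lower in vivo, and RANKL itself (Tnfsf11) was detected on neither array.

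Stromal genes told the populations apart as well. Of 14 detected marrow stromal genes 6 were higher, 4 lower and 4 within 2-fold. Thy1, a surface marker of stromal and T cells, stood at 10.01 in vivo and was undetected in differentiated osteocytes, at least 22.2-fold higher. The treated in vivo array had 9.81, and next came the chondrocyte array at 6.43. Thy1, Grem1 and Il6 were among 14 genes for which both in vivo arrays lay at least 2-fold above all 8 others. Pdgfra, a growth factor receptor of stromal cells, stood at 8.76 in vivo and 13.07 in differentiated osteocytes, 19.9-fold lower in vivo, and was the lowest of the 10 arrays. Of 17 adipocyte genes with a probe 10 were detected, 2 of them higher and 5 lower in vivo, while 7, including Fabp4 and Plin1, were detected on neither array. Lpl, the lipase that takes up lipoprotein fat, stood at 14.35 in vivo and 13.86 in differentiated osteocytes. The fat hormone gene Adipoq stood at 5.61 in vivo and 8.48 in differentiated osteocytes, against 14.70 in differentiated adipocytes, and Pparg at 8.68 in vivo and 10.37 in differentiated osteocytes.

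Cell cycle genes differed little. Of 21 detected members 1 was higher, 3 lower and 17 within 2-fold, with a median difference of 0.34. Their median level was 8.43 in vivo and 8.11 in differentiated osteocytes, against 8.93 and 10.75 on the MSC arrays and 10.38 on the treated in vivo array. Of 14 growth-arrest and cyclin D genes 6 were lower and 2 higher, with Gadd45a at 10.15 in vivo and 7.71 in differentiated osteocytes. Immediate-early genes, which respond within minutes to handling or serum, were lower for 7 of 17 and higher for 1, Atf3, at 9.49 in vivo and undetected in differentiated osteocytes. Interferon-stimulated genes were lower for 6 of 14 and higher for 1, with a median difference of -0.69 and median levels of 9.64 in vivo and 9.65 in differentiated osteocytes. Both medians were above the 5.76 of the treated in vivo array and the 7.54 of MSC 2 but below the 10.64 of MSC 1. Between the MSC arrays, which share a label, the median difference of the list (MSC 2 minus MSC 1) was -3.04.

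The remaining lists covered metabolism, stress and general cell functions. Of 18 hypoxia and glycolysis genes 7 were higher and 1 lower, with Ldha at 13.69 in vivo and 11.88 in differentiated osteocytes. Of 16 respiratory chain genes 2 were higher and 0 lower, of 15 unfolded protein response genes 2 and 1, and of 11 cholesterol synthesis genes 3 and 0. Gclm and Nqo1, enzymes of the oxidative stress response, were 9.12-fold and 6.92-fold higher in vivo, and 6 of 15 genes of that list were higher and 1 lower. Of 13 ribosomal protein genes 1 was higher and 4 lower. Hox genes, which record body position, were higher for 5 of 18 and lower for 9, mostly at low levels. With undetected levels at their limit, 2 stayed 2-fold higher and 5 lower. Hoxa5 stood at 7.63 in vivo and 9.41 in differentiated osteocytes. On the treated in vivo array the pattern was another, with Hoxc6 and Hoxc9 undetected there but at 10.60 and 9.11 in vivo, against 10.81 and 9.51 in differentiated osteocytes. Of 9 housekeeping genes 7 differed by less than 2-fold, with Ppia at 14.76 in vivo and 14.64 in differentiated osteocytes.

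Over the 10 arrays, the in vivo array was at least 2-fold above all 9 others for 180 of the 1897 higher genes, and the differentiated array at least 2-fold below all others for 21. Besides Mmp12, osteocalcin and ferroportin, the 180 held Serpinb2, Ccl6 and Folr2, all undetected in differentiated osteocytes and chosen after their values were seen. Tgfbi, a secreted matrix protein, was among the 21: it stood at 9.66 in vivo and was undetected in differentiated osteocytes, while no other array lay below 7.50. Of the 1775 lower genes, the differentiated array was at least 2-fold above all others for 138 genes, with Cldn11, Cldn1 and Fmo1 among them, and the in vivo array at least 2-fold below all others for 38. Tm7sf3, Smoc1 and Foxd1 were farthest below, at 4.36, 5.14 and 4.86 in vivo, against 10.31, 10.20 and 9.63 in differentiated osteocytes. They too were chosen after their values were seen.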

How the data were processed

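Per the labels' protocols, total RNA was purified on RNeasy columns and turned into biotin-labelled cRNA with an Ambion MessageAmp kit before hybridisation. Per the file headers, the deposited scanner table holds 2 columns per array for 10 arrays, a probe intensity and a detection p-value. The scanner software and its normalisation are not given in the sources used here. Intensities were corrected with normexp fitted from the detection p-values (limma 3.58.1 neqc, R 4.3.3, offset 16), quantile-normalised over the 10 arrays and taken to log2. Tables were handled with Python 3.11.15, pandas 2.3.3, numpy 2.4.6 and scipy 1.17.1. The number of arrays, 1 a side, limits the precision, and no error can be given for a single difference.

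A probe or gene was called higher or lower at 2-fold or more with a detection p-value under 0.01 on the higher side. A gene undetected on 1 array was given as "at least" a fold against the lowest log2 value among that array's detected probes, or its own value where higher. Levels of different probes were not compared as amounts. Gene symbols came from the array's annotation (34885 probes with 1 symbol, 18 with several, 10378 with none), and 34807 were matched by Entrez ID to the RefSeq table of GRCm38.p6, which also gave the promoters. Probes of near-identical genes (Lyz1 and Lyz2, Bglap and Bglap2, Bcl2a1b and Bcl2a1d, C4a and C4b) may share target, so those genes are uncertain.

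Named genes were the 14 with the highest and the 14 with the lowest difference after that limit, clone-named genes passed over, together with detected members of the gene lists and the sex-linked genes. The members and the lists were chosen with earlier results of these data known. The call rule was checked on simulated data. Alternatives changed the background correction, offset, normalisation, detection limit, fold and probe rule.

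The deposited series value table was an alternative. By probe ID, its differentiated and reprogrammed osteocyte columns hold log2 values that follow the scanner values (Spearman's rho 0.99957 and 0.99829), each with a median of 3.90. Its other 8 columns are linear, with medians of 14.1 for in vivo osteocytes and from 4.44 to 14.3 over the 8, and do not follow them by ID (rho from -0.00745 to -0.00155). All 45281 lines were therefore matched by rank, within 1 rank, and 1 line carried the ID of its matched probe. For the deposited log2 values, the authors' centring and normalisation stay unknown.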

Additional observations from a re-analysis of the deposited data

How the results depend on the processing

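No paired analysis was possible because each side had 1 array. No probe was called in the opposite direction under the 5 other background, offset and normalisation settings; the direction of single genes under the mean over their probes was not computed, and 192 called genes had an opposite probe. Against 3374 probes higher and 3403 lower in vivo, there were 1782 and 1471 without background correction, 2337 and 2180 with an offset of 50, 1687 and 2254 among probes detected on both arrays, 1201 and 739 at 4-fold, and 1897 and 1775 when genes were counted by their brightest probe. Normalising the 2 arrays alone, scaling to the 75th percentile and a detection limit of 0.05 kept both counts within 1.5 times. So did leaving out probes that set the differentiated and reprogrammed osteocyte arrays apart, an alternative chosen after seeing the data, with 3118 and 3121. The series value table did too, but its in vivo values were matched to probes by their scanner ranks. Their order was thus fixed in advance, and this alternative is no independent check. The macrophage median, 7.59, was 5.67 without background correction, 6.46 with an offset of 50, 7.42 with the 2 arrays alone, 7.20 at the 75th percentile, 7.73 in the value table, 5.77 as a mean over detected probes and 6.87 with undetected levels at their limit. The osteoblast median, 1.08, was 1.62 in the value table but 0.67 without background correction, 0.69 with an offset of 50, 0.70 at a detection limit of 0.05 and 0.79 at the 75th percentile, all under 2-fold. Of 358 called named genes, 286 stayed past 2-fold without background correction and 313 with an offset of 50. Signal over background limits genes seen on 1 array: they have only a lower limit of their fold. The cause of these shifts was not tested.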
